A study of Mus musculus with 8 samples.

Results

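Among the genes that mouse macrophages were transcribing during a response to lipopolysaccharide, 511 had a body longer than 100 kb and occurred at 1 place in the genome. They were chosen from a table of 22753 genes by 3 conditions: a span above 100 kb, 1 copy, and a mean of at least 0.5 FPKM (a level per length of gene, scaled by the total of the library) over the 8 libraries. Of the 2149 genes over 100 kb, 16 had more than 1 copy and 1614 more fell short of that level. A further 8 whose symbols begin with Slc, Zfp or Trim were left out. Level chose the members, so it is described here and not tested. Of the 511, 315 reached 0.5 FPKM in every one of the 4 time groups, while 23 were below it before treatment and 148 were below it at 180 min. The table held 8343 genes of any length at that level, and every test was run on all of them.

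The libraries came from macrophages differentiated from the bone marrow of 8-week-old male C57BL/6 mice, kept in serum-free medium and treated with 100 ng/ml of lipopolysaccharide (LPS, a component of the outer membrane of Gram-negative bacteria). Nuclei were taken before treatment (0 min) and after 20, 60 and 180 min, with 2 biological replicates at each time. All 4 groups share the strain, the sex, the age and the medium. LPS was the only agent in the libraries analysed. Nascent RNA was measured by GRO-seq (global run-on sequencing), in which isolated nuclei extend RNA that is already under synthesis with a brominated nucleotide and the labelled RNA is captured and sequenced. The signal over a gene body therefore reflects engaged RNA polymerase, not mature mRNA.

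LPS binds Toll-like receptor 4 on macrophages and activates NF-kB, MAP kinases and, with a delay, interferon signalling, which together switch a broad set of genes on and others off. A polymerase released from a promoter has to travel through the whole body of a gene before it terminates, and in a long gene most of that body is intron. When initiation changes, the front of new polymerases, or the tail of the last ones, crosses the body from the start towards the end. The table gives 1 value for each gene body, so positions within a body were not measured here. Long genes of macrophages include signalling adaptors, exchange factors for small GTPases, motor proteins, chromatin regulators and a few transcription factors.

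The bodies ran from 100.053 to 716.091 kb, with a median of 136.472 kb, and 206 of them exceeded 150 kb. They lay on 21 chromosomes. Mean levels ran from 0.501 to 22.3 FPKM with a median of 1.09 FPKM, against a median of 1.43 FPKM for all 8343 tested genes. At the edge of the length condition, Map2k4 (100053 bases, 1.18 FPKM), Epc2 (100123 bases, 0.974 FPKM) and Inpp5d (100196 bases, 1.85 FPKM) were just inside. Wipf1 (99793 bases, 2.21 FPKM), Vmp1 (99957 bases, 4.41 FPKM) and Zcchc11 (99989 bases, 0.851 FPKM) were just outside. At the edge of the level condition, Arhgap26 (0.501 FPKM) was just inside and Pibf1 (0.49975 FPKM) just outside. The span of 81 members overlapped another gene of the table, on the same strand for 20 of them, and for 31 the overlapped gene had at least the member's own level. How the counting treated strand is not given in the sources used here, so reads of overlapping genes cannot be told apart.

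Promoter sequences of 4 long genes are printed as examples, picked from the named members and not standing for the long genes as a set. Windows of 300 bases (250 before the annotated start and 50 after it) were taken from RefSeq on GRCm38.p6, where 402 of the 511 members had an entry. The 4 below belong to Gsap, which was called at 20 min only with the replicate block, Cers6, which rose in a body of 249733 bases, Ddx60, which rose late, and Inpp5d, the member with the deepest fall at 60 min. They are written 5′ to 3′ on the strand of the gene, with matches to a searched motif in capitals.

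Gsap, chr5:21176029-21176328, plus strand: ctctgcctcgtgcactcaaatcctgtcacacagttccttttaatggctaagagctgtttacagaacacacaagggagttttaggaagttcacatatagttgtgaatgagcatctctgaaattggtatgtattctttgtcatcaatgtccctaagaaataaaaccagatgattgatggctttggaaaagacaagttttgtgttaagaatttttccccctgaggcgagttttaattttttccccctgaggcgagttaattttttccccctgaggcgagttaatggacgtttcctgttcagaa
Cers6, chr2:68861191-68861490, plus strand: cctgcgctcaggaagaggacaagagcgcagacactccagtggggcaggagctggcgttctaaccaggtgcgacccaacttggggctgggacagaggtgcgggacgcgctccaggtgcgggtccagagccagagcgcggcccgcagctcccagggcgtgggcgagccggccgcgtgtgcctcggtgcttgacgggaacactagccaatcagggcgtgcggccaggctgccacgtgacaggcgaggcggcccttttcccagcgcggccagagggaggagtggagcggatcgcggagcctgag
Ddx60, chr8:61927837-61928136, plus strand: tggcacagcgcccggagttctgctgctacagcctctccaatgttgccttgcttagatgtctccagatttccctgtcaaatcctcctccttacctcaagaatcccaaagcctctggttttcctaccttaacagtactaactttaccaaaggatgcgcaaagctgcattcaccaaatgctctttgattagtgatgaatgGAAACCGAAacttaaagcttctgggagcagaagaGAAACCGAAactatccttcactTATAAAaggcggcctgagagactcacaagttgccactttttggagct
Inpp5d, chr1:87620062-87620361, plus strand: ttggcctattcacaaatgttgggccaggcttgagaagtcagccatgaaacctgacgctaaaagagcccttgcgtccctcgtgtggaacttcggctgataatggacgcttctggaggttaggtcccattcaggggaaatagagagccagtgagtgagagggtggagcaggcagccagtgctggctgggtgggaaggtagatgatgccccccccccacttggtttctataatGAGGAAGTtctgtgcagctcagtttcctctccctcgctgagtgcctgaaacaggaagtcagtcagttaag

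The letters searched on both strands were GGNNNTTCC (a loose form of the NF-kB site), GAAANNGAA (the core of the interferon-stimulated response element), TGANTCA (AP-1), GAGGAAGT (an ETS site as bound by PU.1, the ETS factor of myeloid cells) and TATAAA (the TATA box). None of the matches in these 4 windows overlapped another. Ddx60 held 2 matches to the interferon-stimulated response element and 1 to the TATA box. Inpp5d held 1 match to the ETS letters, and the windows of Gsap and Cers6 held none of the 5. Among all 32851 promoter windows of the same length, 18.5% held the NF-kB letters, 8.56% the interferon element, 7.81% AP-1, 3.20% the ETS letters and 13.6% the TATA box. Among the 562 windows of the long genes the shares were 21.4%, 6.05%, 4.98%, 3.02% and 9.25% in that order. The 7505 windows of tested genes up to 100 kb gave 22.7%, 7.66%, 4.96%, 3.65% and 6.66%. Members called higher at 180 min (76 windows) held the NF-kB letters in 23.7% and the interferon element in 7.89%. For members called lower at 180 min (150 windows) these were 23.3% and 6.0%. Of other named members, Plxnc1, which fell, and Myof, which was not called, each held 1 match to the interferon element. The windows of the long genes had a median GC content of 63.7% and a median of 23.5 CpG, against 60.7% and 21 for the shorter tested genes. These matches describe letters and are no evidence of binding.

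Sequencing depth, recovered from the smallest steps between FPKM values, was 44.4 to 61.2 M reads in the 4 libraries of replicate 1 and 7.96 to 11.1 M in the 4 of replicate 2. A long body collects many reads: the median value of a member rested on 8212 reads in replicate 1 and 1589 in replicate 2, against 1218 and 166 for tested genes up to 100 kb. Of the 4088 member values, 16 rested on fewer than 100 reads. Between the 2 replicates, members correlated at 0.901 (0 min), 0.912 (20 min), 0.924 (60 min) and 0.933 (180 min; Pearson's r of log2 values across genes, which are not independent). All 9 macrophage markers found in the table reached 0.5 FPKM, while none of 7 T and NK cell, 5 B cell, 4 dendritic cell, 4 mast cell, 4 erythroid or 5 stromal markers did. Of 6 neutrophil markers 2 did. Summed neutrophil markers ran from 2.30 to 11.6 FPKM over the libraries, lowest at 0 min and highest at 60 min. Summed stromal markers were 0.063 and 0.095 FPKM at 0 min and 1.04 and 0.531 at 180 min. The part of either in the changes below was not tested.

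After 20 min of LPS the changes of the long gene bodies were small. Of the 511, 278 (54.4%, against 63.2% of all tested genes) were lower than at 0 min in both replicates. In both replicates 130 (25.4%, against 17.6%) were higher. No member was called higher, against 0.108% of all tested genes, and none was called lower, against 0.0% (limma on log2(FPKM + 0.1), Benjamini-Hochberg adjusted p below 0.05). At an unadjusted p below 0.05 there were 3 of the 511 higher (Agpat4, Gsap and Ptprj) and 0 lower. Of all 8343 tested genes, 234 were higher and 264 lower at that threshold, so the members passed it less often than the background. A fit that took the replicate number as a block called 1 member higher, Gsap, where 2.30% of all tested genes were called. Changes from 0 min to 20 min spanned -0.21 to 0.29 on the log2 scale between the 5th and 95th percentile of members. Over all tested genes they spanned -0.93 to 0.65. The median absolute deviation was 0.077 for members and 0.220 for all tested genes, while the median gap between replicates at 0 min was 0.267 for members and 0.451 for all tested genes. The narrower spread thus came with deeper counts, and the part of depth in it was not tested.

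Gsap encodes an activator of gamma-secretase and spans chr5:20692085-20797519 (mm9). It measured 1.07 and 1.37 FPKM at 0 min, 2.59 and 2.57 at 20 min, 7.21 and 7.47 at 60 min, and 5.37 and 4.98 at 180 min. Both libraries at 20 min were above both at 0 min. The change at 20 min was 1.03 ± 0.27 on the log2 scale (SE, n = 2 per group), with a limma adjusted p of 0.458 without the block and 0.0364 with it. Ptprj, a receptor-type tyrosine phosphatase of leukocytes in a body of 147758 bases, measured 2.62 and 3.03 FPKM at 0 min and 4.61 and 4.57 at 20 min. Agpat4, an acyltransferase of phospholipid synthesis, measured 0.734 and 0.649 FPKM at 0 min and 1.71 and 1.18 at 20 min. Neither of these passed the limma test at 20 min without the block (adjusted p = 0.835 for Ptprj, 0.779 for Agpat4), although in both genes the groups did not overlap. Groups did not overlap for 39 members higher at 20 min, where the background was 8.39%, and for 55 lower, where it was 29.6%.

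**Figure D1:**
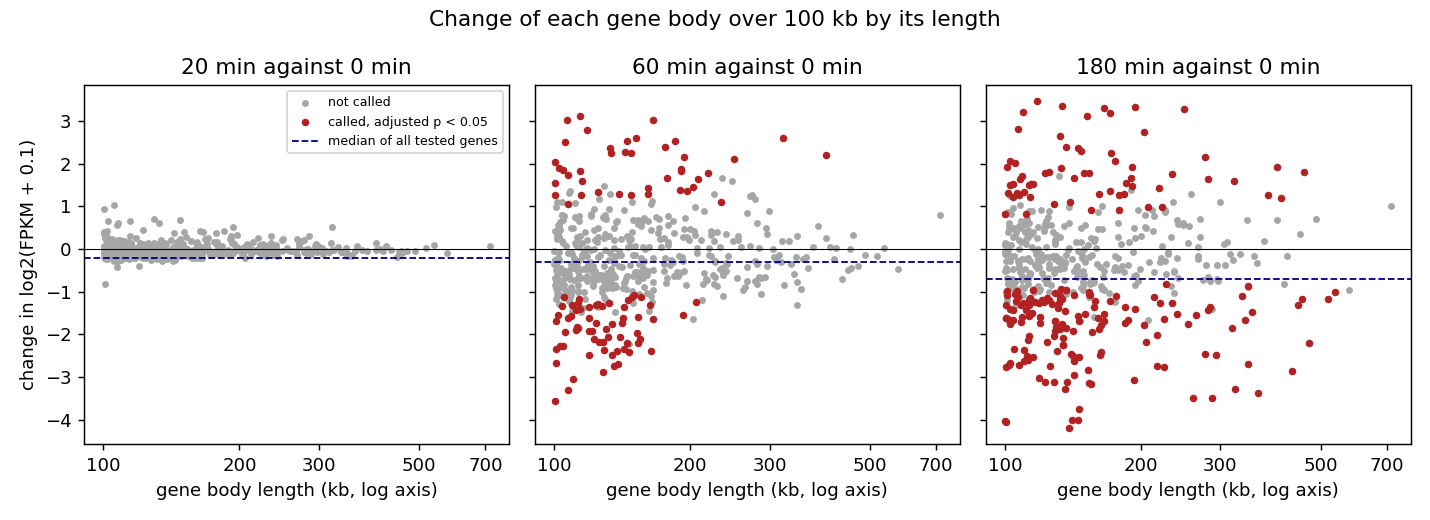
Change of each of the 511 gene bodies over 100 kb against its length in kb (log axis), in log2(FPKM + 0.1), for 20, 60 and 180 min against 0 min. Red points are called at an adjusted p below 0.05, grey points are not, and the dashed line is the median of all tested genes. At 20 min no point is red, and at 60 min only 2 genes over 250 kb lie below -1, against 22 at 180 min.

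By 60 min, 41 long genes were called higher (8.02%, against 5.07% of all tested genes) and 64 lower (12.5%, against 8.80%). Among named members the largest rises were those of Col18a1, Nfkb1, Arhgef3 and Lpar1, and the largest falls those of Inpp5d, Arhgef6, Rasa3 and Mbnl1. With the replicate block the counts were 89 higher (17.4%, against 11.7%) and 158 lower (30.9%, against 27.9%). Median-ratio scaling turned the split round, to 51 higher (9.98%, against 6.72%) and 36 lower (7.05%, against 6.63%), since it moves the median of all tested genes from -0.29 to 0.01. Without 0 min replicate 1 the calls were 8 higher and 9 lower, and without 0 min replicate 2 they were 12 and 16. Without 60 min replicate 1 they were 23 and 34, without 60 min replicate 2 they were 16 and 29, and without either 20 min library they were 25 higher and 42 to 43 lower. The calls that held whichever library was left out numbered 8 higher and 7 lower. Groups did not overlap for 129 members higher at 60 min, where the background was 17.2%, and for 243 lower, where it was 36.7%. In bulk nuclei, fewer transcribing cells and less transcription per cell cannot be told apart.

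Nfkb1 encodes the p105 precursor of the p50 subunit of NF-kB and spans chr3:135247619-135354511. It measured 1.74 and 2.25 FPKM at 0 min, 3.07 and 2.89 at 20 min, 14.5 and 19.7 at 60 min, and 14.5 and 14.5 at 180 min. The libraries at 60 and 180 min were all above those at 0 and 20 min. The mean at 60 min was 8.56 times that at 0 min, a change of 3.03 ± 0.31 on the log2 scale (SE, n = 2 per group; limma adjusted p = 0.00273). Hivep2, one of the large zinc finger proteins that bind NF-kB-like enhancer motifs, measured 0.234 and 0.203 FPKM at 0 min, 0.381 and 0.274 at 20 min, 1.80 and 1.67 at 60 min, and 0.868 and 0.786 at 180 min. Its rise at 60 min was 2.53 ± 0.27 (limma adjusted p = 0.00329), and its level at 180 min lay between those at 20 and 60 min. Its relative Hivep3, with a body of 320733 bases, rose by 2.60 ± 0.42 at 60 min (limma adjusted p = 0.0106), a call lost without 0 min replicate 2 (0.0653). Zhx2, a zinc finger and homeobox repressor, was at 0.136 and 0.121 FPKM at 0 min and at 1.27 and 1.18 at 60 min. That change was 2.54 ± 0.28 (limma adjusted p = 0.00334).

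Outside the transcription factors, Arhgef3, an exchange factor for small GTPases, was at 0.164 and 0.196 FPKM at 0 min and at 1.66 and 2.84 at 60 min. Lpar1, a receptor for lysophosphatidic acid, was at 0.048 and 0.122 FPKM at 0 min and at 1.08 and 1.25 at 60 min. For both genes the 60 min libraries were far above the 0 min libraries, and limma gave rises of 3.03 ± 0.33 (adjusted p = 0.00329) for Arhgef3 and 2.80 ± 0.33 (adjusted p = 0.00392) for Lpar1. Ptprj measured 13.7 and 13.9 FPKM at 60 min and 15.0 and 13.6 at 180 min. Its change at 60 min was 2.25 ± 0.27 (limma adjusted p = 0.00437). Gsap reached 6.01 times its 0 min mean at 60 min, a change of 2.50 ± 0.27 (limma adjusted p = 0.00329). Col18a1, which encodes the collagen from which endostatin is cut, was high in the 60 min libraries only: 0.443 and 0.339 FPKM at 0 min, 0.853 and 0.518 at 20 min, 5.86 and 2.88 at 60 min, and 0.857 and 0.308 at 180 min. Its rise at 60 min was 3.11 ± 0.52 (limma adjusted p = 0.0118), lost without 0 min replicate 2 (0.0653). Abtb2 was also called at 60 min (2.60 ± 0.53, limma adjusted p = 0.0214), and was not called without 0 min replicate 1 (0.124).

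Among the members that fell, Inpp5d encodes SHIP1, the phosphatase that removes a phosphate from the lipid product of PI3-kinase in blood cells, and spans chr1:89516887-89617083. It measured 3.60 and 3.88 FPKM at 0 min, 2.90 and 3.68 at 20 min, 0.213 and 0.238 at 60 min, and 0.164 and 0.109 at 180 min. The fall lay between 20 and 60 min in both replicates. At 60 min the change was -3.56 ± 0.27 (SE, n = 2 per group; limma adjusted p = 0.00202). Arhgef6, an exchange factor for Rac and Cdc42, was at 1.51 and 2.06 FPKM at 0 min and at 0.071 and 0.107 at 60 min, a change of -3.31 ± 0.32 (limma adjusted p = 0.00267). Rasa3, a GTPase-activating protein for Ras and Rap, was at 3.36 and 2.52 FPKM at 0 min and at 0.276 and 0.256 at 60 min. Limma gave Rasa3 a change of -3.04 ± 0.29 (adjusted p = 0.00262). Hip1, an adaptor between clathrin and actin, was at 2.25 and 2.66 FPKM at 0 min, 0.283 and 0.303 at 60 min, and 0.048 and 0.031 at 180 min. Both Hip1 libraries were lower at 180 min than at 60 min, while Arhgef6 (0.188 and 0.177 FPKM) and Rasa3 (0.413 and 0.571 FPKM) were higher at 180 min than at 60 min in both replicates. Cdk19, a kinase of the Mediator complex, fell by 2.47 on the log2 scale at 60 min (SE 0.26, limma adjusted p = 0.00293). Mbnl1, a splicing regulator, St6gal1, a sialyltransferase, and Arhgap18, a GTPase-activating protein, were called lower with changes of -2.87 ± 0.43, -2.74 ± 0.34 and -2.42 ± 0.32. Those 3 calls were lost without a 0 min library: adjusted p = 0.0537 for Mbnl1 without replicate 2, and 0.0571 for St6gal1 and 0.0516 for Arhgap18 without replicate 1 (limma).

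**Figure D2:**
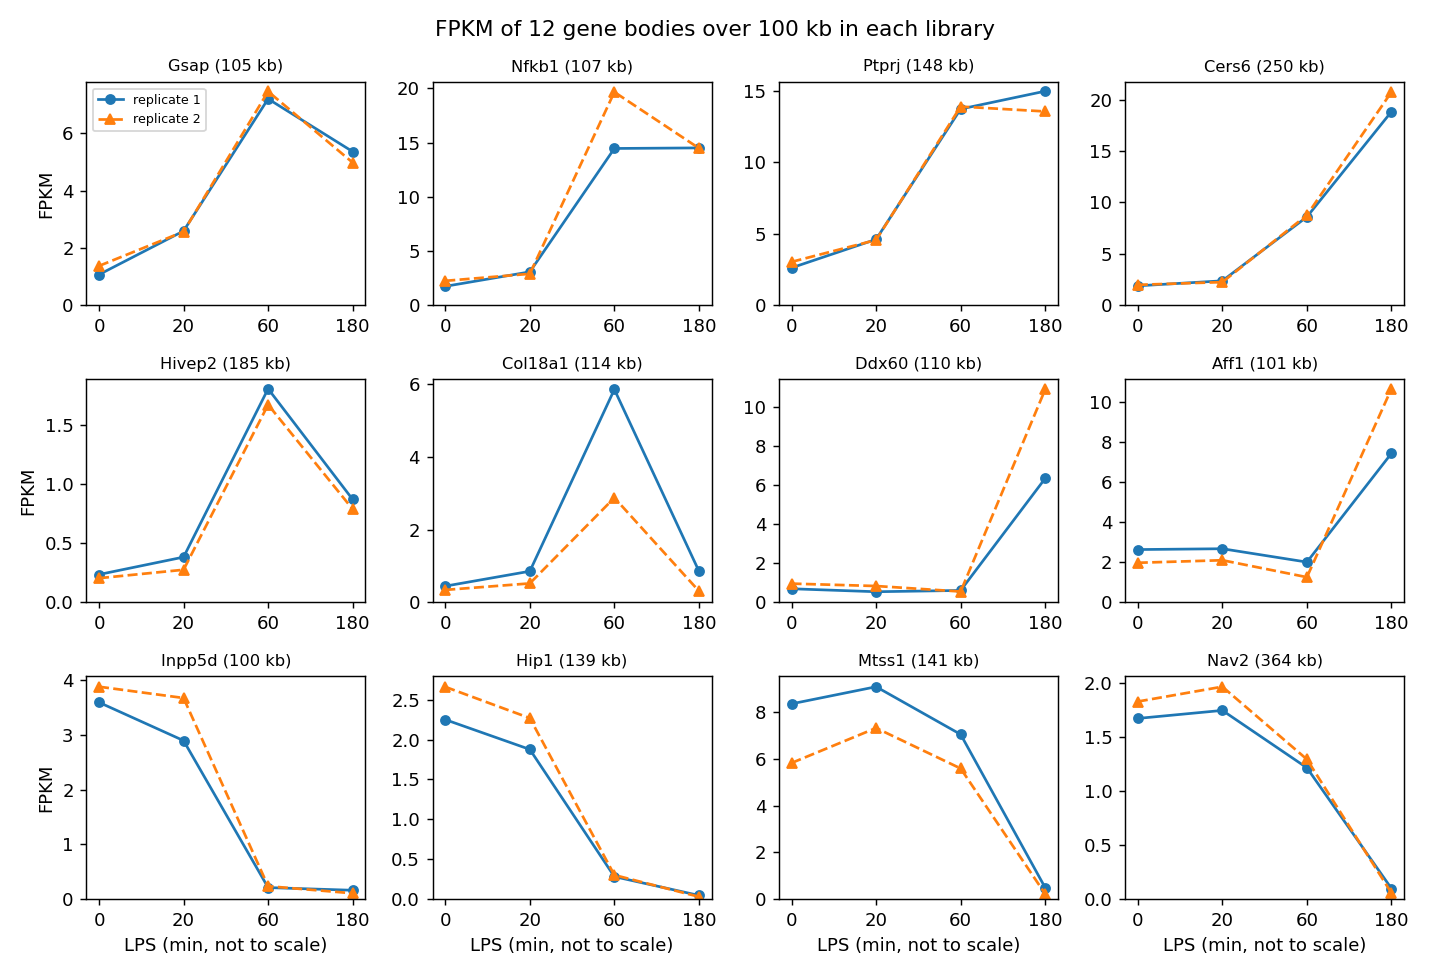
FPKM of 12 gene bodies over 100 kb in each library, with LPS time in minutes (not to scale) on the horizontal axis. Circles and solid lines are replicate 1, and triangles and dashed lines are replicate 2. Inpp5d drops from 2.90 and 3.68 FPKM at 20 min to 0.213 and 0.238 at 60 min, while Mtss1 and Nav2 drop only after 60 min.

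By 180 min, 63 long genes were called higher (12.3%, against 8.93% of all tested genes) and 149 lower (29.2%, against 23.4%). Among the risers an interferon-induced helicase and a ceramide synthase stood beside the factors already up at 60 min. Single genes among the fallers were Mtss1, which bends membranes, the ubiquitin ligase Wwp1 and the sorting nexin Snx24. The fit with the replicate block called 105 higher (20.5%, against 14.2%) and 230 lower (45.0%, against 51.6%), so there the share called lower was below the background. After median-ratio scaling the split was 91 higher (17.8%, against 13.5%) and 70 lower (13.7%, against 12.6%), with the median of all tested genes moved from -0.69 to -0.01. Without 0 min replicate 1 the calls were 30 higher and 76 lower, without 0 min replicate 2 they were 25 and 67, and without 180 min replicate 2 they were 40 and 86. Whichever library was left out, 23 higher and 60 lower calls held. The 180 min and 0 min groups did not overlap for 127 members that were higher, with a background of 16.1%, and for 280 that were lower, with one of 53.1%. Summed stromal markers were also highest at 180 min, as given above.

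Cers6, a ceramide synthase in a body of 249733 bases at chr2:68699614-68949347, measured 1.89 and 1.98 FPKM at 0 min, 2.37 and 2.25 at 20 min, 8.60 and 8.77 at 60 min, and 18.8 and 20.8 at 180 min. Each time group after 0 min was above the one before it. At 180 min the mean was 10.2 times that at 0 min, a change of 3.29 ± 0.27 (SE, n = 2 per group; limma adjusted p = 0.000680). Ddx60, an interferon-induced RNA helicase at chr8:64406886-64516492, measured 0.689 and 0.953 FPKM at 0 min, 0.537 and 0.830 at 20 min, 0.603 and 0.547 at 60 min, and 6.35 and 10.9 at 180 min. It was high in the 180 min libraries only, with a change of 3.21 ± 0.37 against 0 min (limma adjusted p = 0.00163). Atp10a, a phospholipid flippase, was at 0.131 and 0.214 FPKM at 0 min, at 0.197 and 0.234 at 60 min and at 1.96 and 2.87 at 180 min. Limma put the rise of Atp10a at 3.20 ± 0.35 (adjusted p = 0.00137). Other large rises were those of Lpar1 (3.47 ± 0.33), St7 (3.33 ± 0.32), Arhgef3 (3.30 ± 0.33) and Abtb2 (3.12 ± 0.53).

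Mtss1, which binds actin and bends membranes, was among the most transcribed long genes before treatment and spans chr15:58772789-58913581. It measured 8.34 and 5.82 FPKM at 0 min, 9.07 and 7.31 at 20 min, 7.04 and 5.58 at 60 min, and 0.493 and 0.227 at 180 min. Only the 180 min libraries were low. The change at 180 min was -4.0 ± 0.39 (SE, n = 2 per group; limma adjusted p = 0.00103). Nav2, a neuron navigator protein in a body of 363899 bases, held 1.67 and 1.83 FPKM at 0 min, 1.21 and 1.29 at 60 min, and 0.099 and 0.058 at 180 min, a change of -3.38 ± 0.26 (limma adjusted p = 0.000604). Xylt1 (286651 bases), a xylosyltransferase that begins glycosaminoglycan chains, went from 2.02 and 1.27 FPKM at 0 min to 0.820 and 0.630 at 60 min and 0.058 and 0.048 at 180 min. Zdhhc14 (261291 bases), a palmitoyltransferase, went from 1.43 and 1.61 FPKM to 0.606 and 0.885 and then to 0.046 and 0.042. Neither Xylt1 (limma adjusted p = 0.1) nor Zdhhc14 (0.0779) was called at 60 min without the block, and both were with it (0.00848 and 0.0123). At 180 min both were called, with changes of -3.48 ± 0.36 (limma adjusted p = 0.00120) and -3.49 ± 0.29 (limma adjusted p = 0.000699). The deepest falls at 180 min were those of Hip1 (-4.19 ± 0.27), the ubiquitin ligase Wwp1 (-4.06 ± 0.34), Inpp5d (-4.03 ± 0.27), Mtss1 and the sorting nexin Snx24 (-4.0 ± 0.35).

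Between 60 and 180 min, 22 long genes were called higher (4.31%, against 4.08% of all tested genes) and 46 lower (9.0%, against 3.92%). The share called higher was near the background. With the block there were 78 higher (15.3%, against 10.5%) and 129 lower (25.2%, against 26.9%), and after median-ratio scaling 22 higher (against 5.08%) and 30 lower (5.87%, against 2.89%). These counts rested on single libraries: they were 1 and 6 without 180 min replicate 2, 2 and 7 without 60 min replicate 2, 6 and 18 without 60 min replicate 1, and 5 to 7 and 19 to 25 without any 1 of the 0 min or 20 min libraries. The calls of Ddx60 (3.64 ± 0.37, limma adjusted p = 0.00394), Mtss1 (-3.85 ± 0.39, 0.00396) and Nav2 (-2.93 ± 0.26, 0.003) held whichever library was left out. Between 20 and 60 min, 20 long genes were called higher (3.91%, against 2.28%) and 42 lower (8.22%, against 3.46%). The block gave 68 (13.3%, against 9.29%) and 120 (23.5%, against 14.6%), and median-ratio scaling gave 24 (4.7%, against 2.37%) and 31 (6.07%, against 3.44%). All 62 of these calls were lost when either 20 min library was left out, and 2 higher and 2 lower were called without 60 min replicate 1, 0 and 1 without 60 min replicate 2, 8 and 14 without 0 min replicate 1 and 8 and 17 without 0 min replicate 2.

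**Figure D3:**
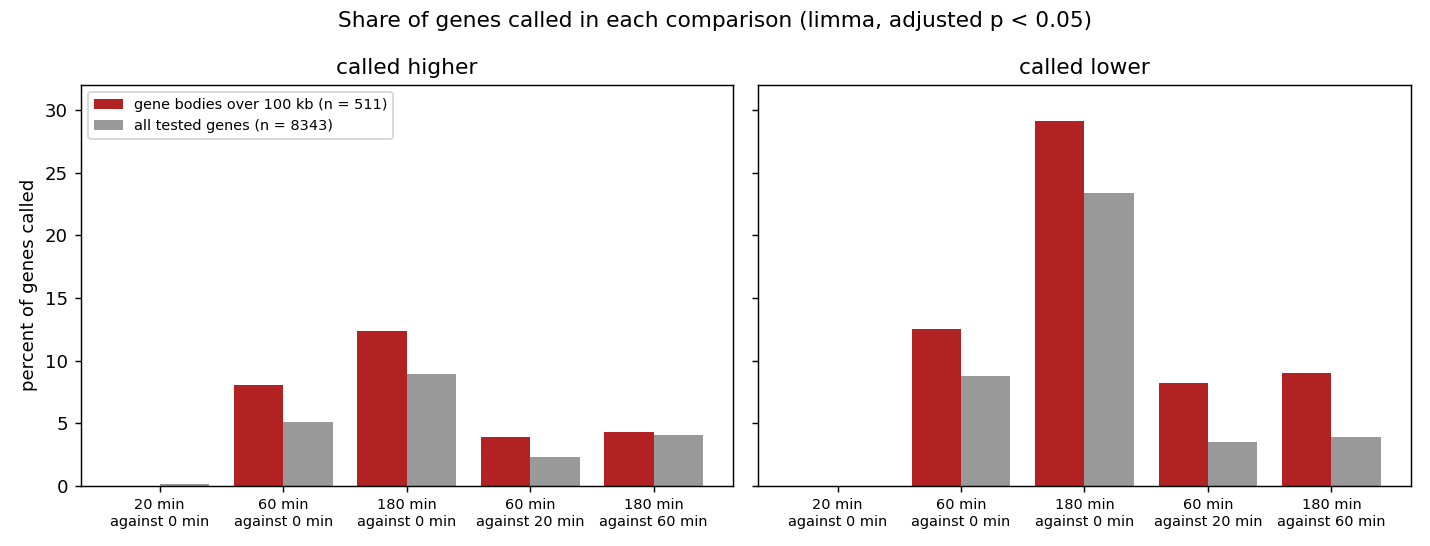
Percent of genes called higher (left) and lower (right) in each of 5 comparisons, for the 511 gene bodies over 100 kb (red) and all 8343 tested genes (grey), from limma without the replicate block. At 180 min against 0 min the shares called lower are 29.2% and 23.4%.

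How far a body had changed by a given time differed with its length. Among the 149 members called lower at 180 min, those of 100 to 150 kb (92 genes) had a median of 91.2% of their 0 min FPKM at 20 min, those of 150 to 250 kb (35 genes) 95.1%, and those over 250 kb (22 genes) 96.8%. At 60 min the medians were 40.1%, 59.5% and 59.2% in the same order. At 180 min they were 26.9%, 28.4% and 22.7%. The calls at 180 min chose these genes and used the same 0 min libraries, so the low values at 180 min, and their likeness between classes, are set by the choice. The medians at 20 and 60 min describe how the classes differed before that time. For a fixed set of genes, a scaling of whole libraries multiplies the class medians of a single replicate alike. It need not do so for the mean of both replicates, since each library has its own factor. It also changes which genes are called, with 70 members lower at 180 min after median-ratio scaling. The class medians were not computed again after scaling.

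Each replicate gave the same order at 60 min between the class of 100 to 150 kb and the longer ones. Replicate 1 had medians of 39.9%, 56.3% and 56.5%, and replicate 2 had 39.0%, 59.7% and 63.2%. Counted gene by gene, 58 of 92 (63.0%), 13 of 35 (37.1%) and 4 of 22 (18.2%) were below 50% of their 0 min value at 60 min. Shorter genes called lower at 180 min had lower medians at 20 min. These were 61.1% of the 0 min value for 573 genes up to 10 kb and 71.6% for 706 genes of 10 to 30 kb. For 521 genes of 30 to 100 kb the median was 84.4%. At 60 min these 3 classes stood at 42.4%, 43.4% and 43.4%. All tested genes of the 3 classes, called or not, had median log2 changes of -0.35, -0.25 and -0.13 at 20 min. After median-ratio scaling those were -0.13, -0.03 and 0.08, so the level at 20 min depends on the scaling. The choice by the same 0 min libraries bears on the shorter genes too. Across the 149 members, log2 length correlated with the log2 ratio to 0 min at 0.27 (20 min), 0.34 (60 min) and -0.04 (180 min; Pearson's r), with Spearman's coefficients of 0.36, 0.35 and -0.06. The points are genes of the same 8 libraries and share the 0 min values, so no test is attached.

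**Figure D4:**
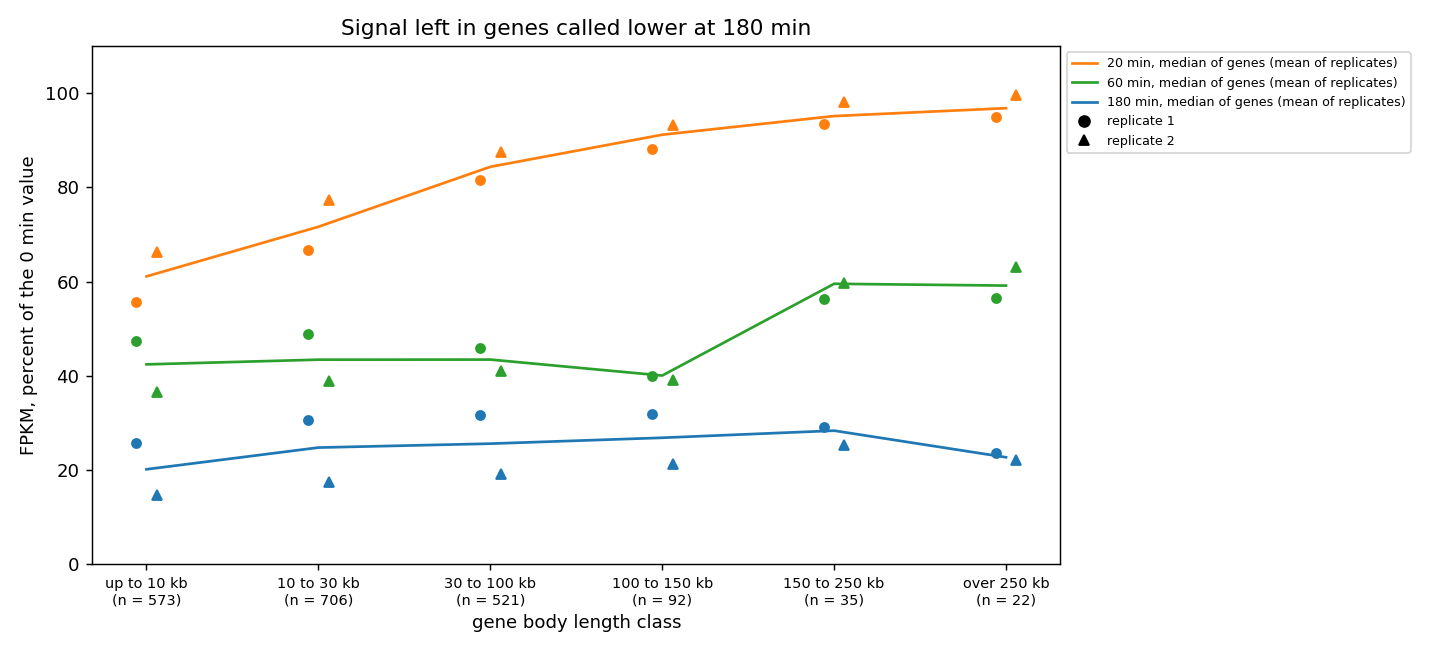
FPKM as a percentage of the 0 min value in genes called lower at 180 min, by class of gene body length, with the number of genes in each class. Lines join the medians over genes of the mean of both replicates at 20, 60 and 180 min, circles are the medians in replicate 1 and triangles those in replicate 2. At 60 min the class of 100 to 150 kb stands at 40.1% and the 2 longer classes at 59.5% and 59.2%.

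The same was seen over all members, called or not. At 60 min, 77 of 305 members of 100 to 150 kb (25.2%) had a change below -1 on the log2 scale, 18 of 142 of 150 to 250 kb (12.7%), and 2 of 64 over 250 kb (3.12%). At 180 min the shares were 32.1%, 28.2% and 34.4%. From 60 to 180 min a further drop by more than 1 was seen in 39 (12.8%), 27 (19.0%) and 19 (29.7%). In tested genes up to 10 kb, of 10 to 30 kb and of 30 to 100 kb that drop was seen in 20.0%, 15.7% and 13.7%. At 60 min against 0 min these 3 classes had 23.3%, 20.6% and 19.1% below -1. Such shares depend on the scaling, which moves the median of all tested genes from 60 to 180 min from -0.39 to -0.03. Single genes over 250 kb varied around this course. Dock2, picked after its values were seen, encodes an activator of Rac in leukocytes with a body of 470586 bases. It measured 3.15 and 2.63 FPKM at 0 min, 2.38 and 1.94 at 60 min, and 0.704 and 0.415 at 180 min. Cadm1, an adhesion molecule of 323033 bases, was at 2.29 and 2.20 FPKM, then 1.11 and 1.34, and then 0.175 and 0.114. Celf2, an RNA-binding protein of 345298 bases and 1 of the 2 members over 250 kb below -1 at 60 min, was at 1.29 and 1.80 FPKM, then 0.435 and 0.716, and then 0.096 and 0.223. At 180 min limma called Dock2 (-2.21 ± 0.32, adjusted p = 0.00349), Cadm1 (-3.27 ± 0.27, adjusted p = 0.000680) and Celf2 (-2.69 ± 0.39, adjusted p = 0.00365), and at 60 min none of the 3 without the block.

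Among the 63 members called higher at 180 min, 1 of 33 of 100 to 150 kb (3.03%) was above 200% of its 0 min value at 20 min, and 0 of 23 and 0 of 7 in the longer classes. That 1 gene was Gsap. Genes up to 10 kb called higher at 180 min were above 200% at 20 min in 70 of 196 cases (35.7%), those of 10 to 30 kb in 60 of 251 (23.9%), and those of 30 to 100 kb in 25 of 233 (10.7%). At 60 min the 6 classes, from the shortest, stood at 64.8%, 49.8%, 56.2%, 42.4%, 56.5% and 42.9%. For these 63 members log2 length and the log2 ratio to 0 min gave Pearson's r of 0.01 (20 min), 0.14 (60 min) and 0.06 (180 min). Spearman's coefficients were 0.13, 0.25 and 0.13 in the same order.

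Of the 3 longest bodies, 1 was called against 0 min, at 180 min. Diap2, a formin of 716091 bases, measured 0.377 and 0.638 FPKM at 0 min, 0.715 and 1.22 at 60 min, and 1.02 and 1.17 at 180 min. Its change at 180 min was 1.01 ± 0.38, with a limma adjusted p of 0.0826 and, with the block, 0.00530. Cdk14, a cyclin-dependent kinase of 576866 bases, measured 2.27 and 3.33 FPKM at 0 min and 1.06 and 1.79 at 180 min, a change of -0.95 ± 0.41 (limma adjusted p = 0.113, and 0.00322 with the block). Large, a glycosyltransferase of dystroglycan with a body of 537957 bases, held 0.777 and 0.662 FPKM at 0 min, 0.779 and 0.700 at 60 min, and 0.342 and 0.272 at 180 min. Limma called Large lower at 180 min (-1.01 ± 0.27, adjusted p = 0.0297), and did not without 0 min replicate 1 (0.188) or after median-ratio scaling (0.287).

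Over the time course, 241 members (47.2%) had their highest mean at 0 min, 34 (6.65%) at 20 min, 116 (22.7%) at 60 min and 120 (23.5%) at 180 min. Of all tested genes 53.0%, 7.66%, 24.4% and 15.0% did so. The lowest mean was at 60 min in 124 members (24.3%), against 14.3% of all tested genes, and at 180 min in 252 (49.3%), against 61.0%. The median change of members was -0.05 at 20 min, -0.30 at 60 min and -0.45 at 180 min. Over all tested genes it was -0.20, -0.29 and -0.69. After median-ratio scaling the medians of members were 0.15, -0.00 and 0.22, so the sign at 20 and 180 min depends on the scaling.

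By function, 307 of the members fell into 11 lists drawn up by hand, and 204 fell into none. The lists were made with earlier results of these data known. Each list is described by its counts, to be read against the backgrounds of 5.07% higher and 8.80% lower at 60 min and 8.93% higher and 23.4% lower at 180 min, and by its median beside -0.29 and -0.69 for all tested genes. Members named below only to complete a small count were picked after their values were seen.

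Transcription factors were the list with the largest share called higher: 6 of 21 at 60 min and 8 of 21 (38.1%) at 180 min. Those at 180 min were Nfkb1, Zhx2, Aff1, Hivep1, Creb5, Etv6, Hivep3 and Hivep2. After median-ratio scaling 10 were higher and 2 lower. The 3 called lower at 60 min were Mef2c, Fli1 and Atf6, and 6 were called lower at 180 min. Whichever library was left out, 3 of the 8 higher and 2 of the 6 lower calls at 180 min held. The median change of the list at 180 min was 0.68. Fli1, an ETS factor of blood cells, was at 3.11 and 3.78 FPKM at 0 min, 0.687 and 1.00 at 60 min, and 0.381 and 0.285 at 180 min (-3.03 ± 0.31, limma adjusted p = 0.00120). Aff1, a scaffold of the super elongation complex, was at 2.63 and 1.97 FPKM at 0 min, 2.00 and 1.25 at 60 min, and 7.42 and 10.6 at 180 min (1.92 ± 0.36, limma adjusted p = 0.00884). That call for Aff1 was lost without 0 min replicate 2 (0.0637). Zeb2, a zinc finger homeobox factor and the highest of the list, was not called at 180 min without the block. It held 14.0 and 23.5 FPKM at 0 min, 21.8 and 46.0 at 60 min, and 15.4 and 16.8 at 180 min. Its span overlaps Zeb2os.

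Chromatin and transcription coregulators had 2 of 36 called higher at 180 min (Jarid2 and Arid5b) and 14 (38.9%) lower. That share lower was near those of the phosphoinositide list (37.9%) and the vesicle traffic list (35.6%). The median change was -0.81. At 60 min 2 were called higher (Cdk6 and Jarid2) and 2 lower (Cdk19 and Tbl1xr1), and the block raised the lower calls to 13. Cdk6, a cyclin-dependent kinase, is counted here and not in the cell cycle list. After median-ratio scaling there were 4 higher and 7 lower at 180 min. Of the calls at 180 min, 0 of the 2 higher and 4 of the 14 lower held whichever library was left out. Eya1, a phosphatase and coactivator, held 0.851 and 0.878 FPKM at 0 min, 0.531 and 0.736 at 60 min, and 0.072 and 0.068 at 180 min (-2.50 ± 0.29, limma adjusted p = 0.00164).

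Regulators of small GTPases split 5 higher (Arhgef3, Sipa1l1, Rin3, Rgl1 and Arhgap26) to 10 lower of 36 at 180 min, and 3 to 5 at 60 min. The block gave 13 higher and 15 lower at 180 min. After median-ratio scaling the split at 180 min was 8 to 4. In this list 1 of the 5 higher and 3 of the 10 lower calls held without any 1 library. Inflammatory and stress kinase signalling had 4 of 33 higher (Ptprj, Parp8, Lyn and Map2k4) and 6 lower at 180 min, with a median of -0.38. Median-ratio scaling turned that split to 6 higher and 3 lower with a median of 0.27, and 1 of the 4 higher and 3 of the 6 lower calls held without any 1 library. Rasa3, given above as a GTPase-activating protein for Ras and Rap, is counted in this signalling list and not among the GTPase regulators. Tec, a kinase of the family of Btk, was at 3.89 and 3.24 FPKM at 0 min, 2.47 and 1.5 at 60 min, and 0.581 and 0.430 at 180 min (-2.60 ± 0.34, limma adjusted p = 0.00242). Ptprc, the leukocyte antigen CD45, was not called without the block. It held 5.62 and 6.74 FPKM at 0 min and 7.94 and 8.88 at 180 min, higher in both replicates.

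Phosphoinositide, lipid and cyclic nucleotide signalling had 4 of 29 higher (Cers6, Gng12, Plcl2 and Dgkh) and 11 (37.9%) lower at 180 min. Median-ratio scaling turned the split to 6 higher and 4 lower, and 2 of the higher and 4 of the lower calls held whichever library was left out. Prkch, a protein kinase C, held 2.46 and 2.09 FPKM at 0 min, 0.703 and 0.714 at 60 min, and 0.199 and 0.166 at 180 min (-3.07 ± 0.25, limma adjusted p = 0.000693). Cytoskeletal and motor proteins had 3 of 27 higher (Myo10, Dst and Daam1) and 9 lower at 180 min, or 4 and 5 after median-ratio scaling. None of the 3 higher and 5 of the 9 lower calls held without any 1 library. Myo5a, a myosin of vesicle transport, went from 2.75 and 3.13 FPKM at 0 min to 0.551 and 0.821 at 60 min and 0.317 and 0.334 at 180 min (-2.83 ± 0.29, limma adjusted p = 0.00123).

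Adhesion, guidance and endocytic receptors had 4 of 18 higher (Notch2, Ext1, Gpr126 and Lphn2) and 6 lower at 180 min, or 5 and 6 after median-ratio scaling, and 3 of the higher and 5 of the lower calls held without any 1 library. Some of these are glycosyltransferases that modify surface proteins, not receptors: Ext1, St6gal1 and Mgat5. Plxnc1, a semaphorin receptor, was at 1.58 and 1.47 FPKM at 0 min, 0.258 and 0.246 at 60 min, and 0.069 and 0.1 at 180 min (-3.14 ± 0.26, limma adjusted p = 0.000699). Notch2 went the other way, from 2.52 and 1.93 FPKM at 0 min to 4.25 and 2.89 at 60 min and 12.8 and 11.4 at 180 min (2.40 ± 0.32, limma adjusted p = 0.00270). Mrc1, the mannose receptor of macrophages, went from 1.69 and 2.31 FPKM at 0 min to 0.186 and 0.268 at 180 min (-2.68 ± 0.45, limma adjusted p = 0.00606). Notch2 and Mrc1 were singled out after their values were seen.

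Vesicle traffic, autophagy and organelle genes, the largest list, had 4 of 45 higher (Atp10a, Gphn, Tbc1d1 and Ap3b1) and 16 (35.6%) lower at 180 min. After median-ratio scaling the split was 6 to 7, and 1 of the 4 higher and 8 of the 16 lower calls held without any 1 library. At 60 min 1 was higher (Tbc1d1) and 7 were lower, and the block made those 3 and 20. Vps13c, a lipid transfer protein, held 1.41 and 1.30 FPKM at 0 min, 0.254 and 0.216 at 60 min, and 0.087 and 0.040 at 180 min (-3.17 ± 0.29, limma adjusted p = 0.000938). Ubiquitin and proteolysis genes had 4 of 30 higher (Usp25, Ubr4, Ankib1 and Fbxw11) and 8 lower (26.7%, near the background) at 180 min. Median-ratio scaling turned the split to 4 higher and 2 lower, and 1 call in each direction held without any 1 library. Usp25, a deubiquitinase, was at 1.24 and 1.71 FPKM at 0 min, 1.62 and 2.01 at 60 min, and 5.28 and 7.89 at 180 min (2.07 ± 0.34, limma adjusted p = 0.00568). Ubr4, which recognises N-degrons, was called at 180 min (1.72 ± 0.37, limma adjusted p = 0.0139), and not without 0 min replicate 2 (0.0935).

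RNA-binding, splicing and translation genes had 2 of 23 higher at 180 min, Ddx60 and Fchsd2, and 8 lower, or 3 and 5 after median-ratio scaling. Both higher and 4 of the 8 lower calls held without any 1 library. Fchsd2 encodes a protein of actin and endocytosis and not an RNA-binding one. The 9 genes of DNA repair, replication and the cell cycle had 0 higher and 2 lower at 180 min, Rb1 and Ccny, of which Rb1 held without any 1 library. The Rb1 body holds the separately listed gene Lpar6. Rb1, the retinoblastoma protein, went from 0.952 and 1.41 FPKM at 0 min to 0.187 and 0.314 at 60 min and 0.155 and 0.123 at 180 min (-2.40 ± 0.36, limma adjusted p = 0.00406). Ccny, a cyclin, was called at 180 min (-1.46 ± 0.32, limma adjusted p = 0.0150), but not without 0 min replicate 2 (0.0981) and not after median-ratio scaling (0.0873). With that scaling the median change at 180 min was above 0 for each list other than chromatin coregulators (-0.16) and the DNA repair and cell cycle list (-0.04).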

How the data were processed

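GRO-seq libraries of bone marrow derived macrophages from 4 time groups of 2 biological replicates were analysed from 1 deposited table. Per the file headers, the authors gave 1 FPKM value per gene and library over the gene body with its length, strand and copy number. The submitters' processing notes name CASAVA 1.7, Bowtie2 2.0.5, HOMER 4.6 and 4.7 and the build mm9, without saying what each did, and how strand was counted is not given in the sources used here. Coordinates are printed as the table gives them. Another 8 columns of per-sample values were not used here. Members and functional lists were chosen with earlier results of these data known.

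The 8343 genes whose 8 libraries averaged 0.5 FPKM or more were tested with limma 3.58.1 in R 4.3.3 on log2(FPKM + 0.1), with the 4 groups in 1 model, a mean-variance trend, and Benjamini-Hochberg adjustment over all of them within each comparison. Calls have an adjusted p below 0.05 and, unless another setting is named, come from this fit without the replicate block. Fold changes on this scale understate the change of low genes. With 2 libraries per group the p-values rest on a spread pooled over the groups and genes. Replicate numbers come from the labels: deviations of same-numbered libraries correlated at 0.595 to 0.882 over all tested genes in the 6 pairs of groups, so the numbers were taken to pair the libraries, and a fit with the replicate block was run as an alternative.

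Depth was recovered from the steps between FPKM values of genes up to 4000 bases. Multiplied back, 97.7% to 100% of those values came within 0.1 of a whole read, where chance gives 20%. A depth above 50 M reads is stated in the labels and reached by 2 of the recovered depths. A voom fit on the recovered reads was added after the data were seen. It called 64 members higher (12.5%, against 6.62% of tested genes up to 100 kb) and 124 lower (24.3%, against 11.4%) at 60 min. At 180 min it called 82 higher (16.0%, against 9.83%) and 184 lower (36.0%, against 22.6%). Other alternatives were the pseudocount, the filter on low values, median-ratio scaling of the libraries, only the 2 groups compared, leaving out each library, members without overlaps, and a length above 150 kb.

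Named members follow a rule: the 8 largest rises and falls among calls against 0 min whose groups do not overlap and whose higher mean is at least 1 FPKM (from the block where fewer than 8 were called), 4 each way between successive times, up to 3 called members and 1 not called per list, the 3 longest, and those nearest the thresholds. Clone names, predicted genes and microRNA rows were skipped.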

Additional observations from a re-analysis of the deposited data

How the results depend on the processing

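The numbers of long genes called depended on the fit. No setting reversed the direction of any of the 123 called changes of the 47 named members with a call, but that outcome was largely fixed beforehand. The block, the filters, the fit of only the compared groups and leaving out a library of another time do not change the estimate itself. Members named for their change were also picked for groups that do not overlap, so leaving out 1 library cannot turn that change round. The replicate block, which pairs libraries by their number, moved the counts to 1 higher at 20 min, 89 higher and 158 lower at 60 min, 105 and 230 at 180 min, 68 and 120 from 20 to 60 min, and 78 and 129 from 60 to 180 min. With the block and median-ratio scaling together they were 2 (Gsap and Agpat4), 127 and 111, 190 and 128, 91 and 125, and 123 and 84. Median-ratio scaling alone left 36 lower at 60 min, 70 lower at 180 min and 30 lower from 60 to 180 min. It turned the median change of members from -0.05 to 0.15 at 20 min, from -0.45 to 0.22 at 180 min and from -0.18 to 0.18 between 60 and 180 min. The median at 60 min went from -0.30 to -0.00035 and that from 20 to 60 min from -0.23 to -0.13. A filter of 1 FPKM, which tests fewer genes, left 25 lower at 60 min, 68 lower at 180 min, and 13 higher and 17 lower from 20 to 60 min. No filter left 11 higher and 27 lower from 60 to 180 min. Fitting only the groups compared left 17 and 24 at 60 min, 98 lower at 180 min, 0 and 0 from 20 to 60 min and 2 and 5 from 60 to 180 min. Voom on the recovered reads, chosen after seeing the data, gave 64 and 124 at 60 min, 43 and 81 from 20 to 60 min, and 46 and 77 from 60 to 180 min. Above 150 kb there were 19 and 10 at 60 min, 30 and 57 at 180 min, 10 and 6 from 20 to 60 min, and 7 and 24 from 60 to 180 min, with medians of -0.17 at 60 min and -0.13 from 20 to 60 min.

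Leaving out 1 library gave 8 to 48 higher and 9 to 75 lower at 60 min, 25 to 65 and 67 to 148 at 180 min, 0 to 22 and 0 to 40 from 20 to 60 min, and 1 to 30 and 6 to 54 from 60 to 180 min. The cause of these differences was not tested, beyond the smaller numbers of samples or genes that some settings use. Of the 123 named calls the block ended 0, median-ratio scaling 12, and the fit of only the compared groups 51. Depth limits the lowest values most, with 16 of 4088 member values under 100 reads, and intervals from reads would cover counting error only.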

Other observations

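Some rows of the table over 100 kb are not single independent genes. The 4 members of the Ugt1a family (Ugt1a10, Ugt1a6b, Ugt1a7c and Ugt1a9), which add glucuronic acid to bilirubin and drugs, lie over one another on chromosome 1 and share most of their span, so they hold nearly 1 measurement. Ugt1a10 read 0.698 and 1.04 FPKM at 0 min, 0.217 and 0.406 at 60 min, and 0.471 and 0.329 at 180 min. The row named Mir1195 spans 355143 bases and lies over Acap2 and 2 other listed genes, with 1.01 and 1.08 FPKM at 0 min and 0.886 and 0.950 at 180 min. The row named Mir3471-1 spans 123978 bases over Aplp2, and was called lower at 180 min (-2.18, limma adjusted p = 0.00341) from 1.34 and 1.08 FPKM to 0.251 and 0.137. Spans of this size do not belong to a microRNA, and their values are not read as microRNA levels. These rows were picked after their values were seen.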
